A study of Mus musculus with 2 samples.

Results

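The 4 genes described here, Mhrt, Myh6, Myh7 and Myh7b, are 4 of 25004 genes counted in hearts of transgenic and non-transgenic mice. They were chosen by gene family and position, together with the counts that Mhrt and Myh7 had shown in these same libraries, so all their values are descriptions. The study asked how messenger RNA differs between hearts with a transgene (cMyBP-C delta C0-C1f, a cardiac myosin binding protein-C from which the amino-terminal C0-C1f region is deleted) and non-transgenic hearts. Both groups were of strain FvB/N and 12 weeks old, and each group was 1 library made from 3 hearts combined. The promoter of the transgene is not given in the sources used here. With 1 library per group there is no replicate check and no test, and every interval below covers counting error only, at 95%.

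Myosin heavy chains are the motor proteins of the thick filament, and in the heart they are encoded by a small group of related genes. In the adult mouse heart the fast alpha chain, encoded by Myh6, is known as the main form, while the slower beta chain, encoded by Myh7, prevails before birth and returns under overload or low thyroid hormone. Myh6 and Myh7 lie in tandem on the minus strand, and Mhrt (Myheart) is a long non-coding RNA transcribed from the other strand, into Myh7; in mice it has been described as falling under pressure overload and as acting against the chromatin remodeller Brg1. Myh7b encodes a more distant slow-type chain, and introns of the 3 coding genes host the microRNAs miR-208a, miR-208b and miR-499.

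The counts summed to 190824 in the transgenic and 170543 in the non-transgenic library, low totals at which 1 count stood for 5.24 and 5.86 CPM. The floor used for a count of 0 is 3 counts, or 15.7 CPM in the transgenic and 17.6 CPM in the non-transgenic library. Of 11 markers of ventricular muscle cells, 8 were counted in the transgenic and 9 in the non-transgenic library, with summed raw counts of 7728 and 4595. The ventricular light chain gene Myl2 led them, with Actc1, Tnni3, Tnnc1 and Ryr2 next. The others were low: Ttn had 11 counts in the transgenic and 9 in the non-transgenic library, Atp2a2 4 and 3, Pln 1 and 2, and Mb 0 and 1. Myl3 and Tnnt2, which heart muscle also expresses strongly, had 0 counts in both. Of 5 atrial markers Myl7, Myl4 and Sln were at 0 in both libraries, Nr2f2 had 1 count in each, and Nppa, the atrial natriuretic peptide gene that stressed ventricle also expresses, had 31 in the transgenic and 9 in the non-transgenic library. Of the skeletal muscle markers only Ckm, which the heart also uses, had more than 1 count, and all 3 red cell markers were at 0. Endothelial markers summed to 70 counts in the transgenic and 69 in the non-transgenic library, fibroblast markers to 21 and 32, and leukocyte markers to 15 and 7.

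Mhrt was counted on a single RefSeq accession, NR_033497, whose 5 exons lie on the plus strand of chromosome 14 at chr14:54968787-54974349 (GRCm38, the assembly also called mm10). Myh7 (chr14:54970684-54994626, minus strand) runs towards it from the other side, and Mhrt starts 2146 bp from the start of the counted Myh6 transcripts (chr14:54941921-54966641, minus strand). Of the 828 bases of the Mhrt transcript, 463 (55.9%) lie opposite exons of the counted Myh7 transcripts, and every one of those bases is opposite coding sequence. In 4 of its 5 exons, Mhrt is the reverse complement of part of Myh7 exons 40, 38, 36 and 35, out of 41, which encode the tail of the motor protein. These sequences are shown because any read from them has a counterpart on the other strand in Myh7. They are read from GENCODE release M21 along the plus strand, with bases opposite a Myh7 exon in capitals, for exon 2 (chr14:54971410-54971490), exon 3 (chr14:54972765-54972912), exon 4 (chr14:54973461-54973526) and the first 200 bases of exon 5 (chr14:54973878-54974077).
Mhrt exon 2: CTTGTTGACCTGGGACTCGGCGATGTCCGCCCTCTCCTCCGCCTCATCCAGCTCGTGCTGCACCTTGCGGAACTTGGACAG
Mhrt exon 3: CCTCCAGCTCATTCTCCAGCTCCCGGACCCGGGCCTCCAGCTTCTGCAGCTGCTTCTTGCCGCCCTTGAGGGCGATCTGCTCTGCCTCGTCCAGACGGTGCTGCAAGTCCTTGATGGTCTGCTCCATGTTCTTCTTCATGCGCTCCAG
Mhrt exon 4: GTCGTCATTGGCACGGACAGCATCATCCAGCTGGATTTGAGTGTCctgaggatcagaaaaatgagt
Mhrt exon 5: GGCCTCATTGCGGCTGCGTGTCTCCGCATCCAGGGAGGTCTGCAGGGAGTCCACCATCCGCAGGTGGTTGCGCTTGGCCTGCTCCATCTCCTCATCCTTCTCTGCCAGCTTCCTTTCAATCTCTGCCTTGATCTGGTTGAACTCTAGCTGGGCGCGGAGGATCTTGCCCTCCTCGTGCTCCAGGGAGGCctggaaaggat

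Exons 2 and 3 are in capitals throughout, exon 4 for its first 45 bases and exon 5 for its first 189. The remaining 365 bases of Mhrt, among them the whole of exon 1 with 61 bases and most of exon 5, face no exon of a counted Myh7 transcript. The same stretches resemble Myh6, the close relative of Myh7. Of the 779 windows of 50 bases in the reverse complement of Mhrt, 282 (36.2%) occur unchanged in Myh7 and 207 (26.6%) in Myh6. Between the coding genes, 22.2% of the 50-base windows of Myh7 also occur in Myh6, and none of those of Myh7b occurs in Myh7. Reads from such shared stretches fit more than 1 gene, and how the authors treated them is not given in the sources used here.

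**Figure D1:**
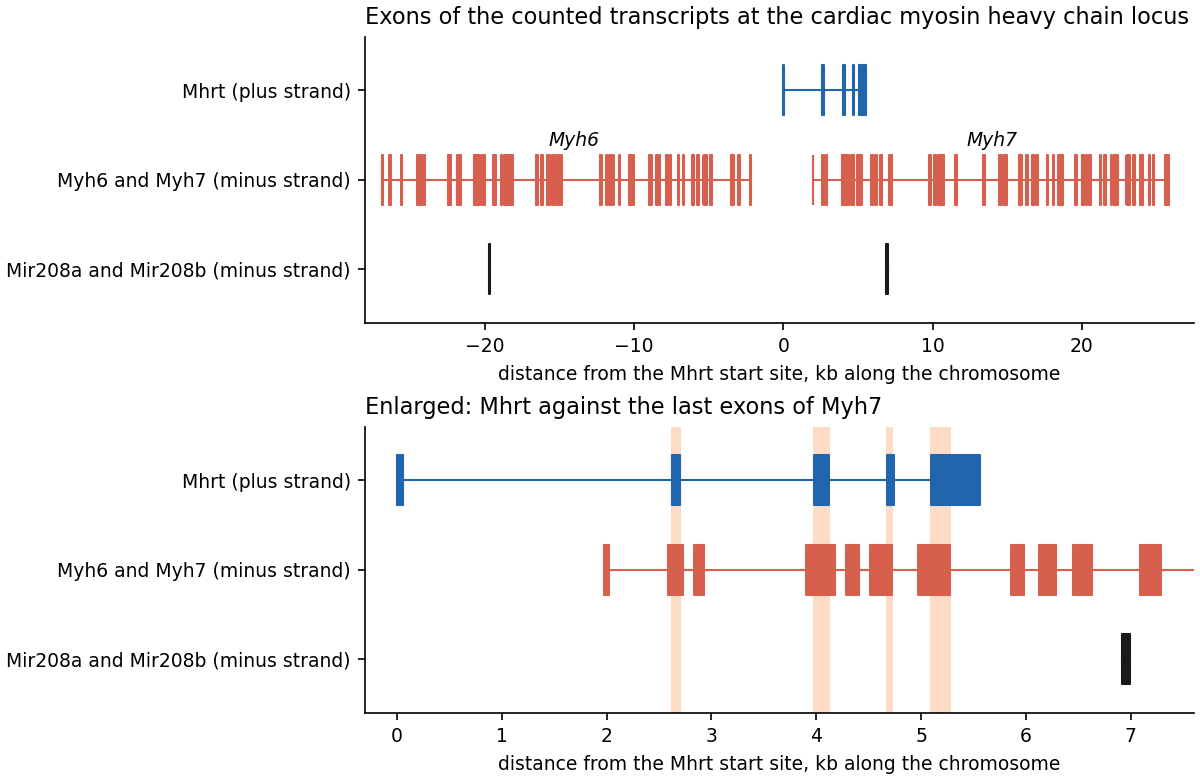
Exons (boxes) and introns (lines) of the counted transcripts at the locus of Myh6 and Myh7, against distance from the Mhrt start in kb along the chromosome, with Mhrt on the plus strand and the others on the minus strand. Shading in the enlarged lower panel marks the 463 bases in 4 exons where Mhrt and Myh7 exons face each other.

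Mhrt had 737 counts in the transgenic and 1778 in the non-transgenic library, and was by far the most counted of the 4 genes in both. It took 0.386% of all counts in the transgenic library (exact Clopper-Pearson interval 0.359 to 0.415) and 1.04% in the non-transgenic library (0.995 to 1.09). By count it ranked 33 among all genes in the transgenic and 9 in the non-transgenic library. After scaling the libraries with TMM factors, which align the bulk of the genes, the ratio of transgenic to non-transgenic was 0.330 (0.302 to 0.359), or 3.03-fold lower in the transgenic library (2.78 to 3.31).

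Read against all genes, Mhrt stood at the low edge. A gene was called lower when its normalised count was at least 2-fold lower and its counting interval lay below a ratio of 1, and 3.71% of the 4236 genes with a ratio (more than 3 counts in a library) were called so. Of the 4 genes, 3 had a ratio and Mhrt alone was called; since its ratio was among the reasons for describing it, nothing is read from that count. Among the 198 genes whose summed counts reached 300, Mhrt had the lowest ratio, at -1.60 on the log2 scale against a median of -0.25. Mhrt has an exon facing it on the other strand, and the 796 genes of that kind with at least 30 counts had a median log2 ratio of -0.26, against 0.18 for 237 genes with none within 5 kb. In bulk tissue, fewer cells of a type and less RNA per cell cannot be told apart, and here neither can the 2 strands: the kit keeps strand origin, but the strand setting of the counting is not given, so a Mhrt count cannot be assigned with certainty to Mhrt or to Myh7.

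**Figure D2:**
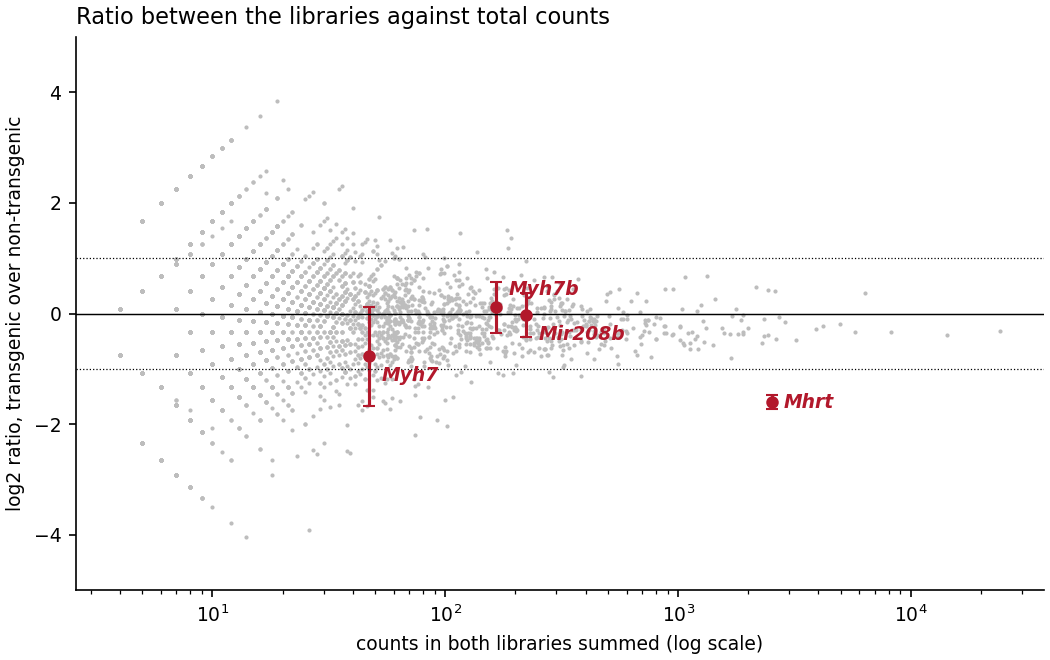
Transgenic over non-transgenic as a log2 ratio, against the counts of both libraries summed (log scale), for the genes with a ratio in grey and Mhrt, Myh7, Myh7b and Mir208b in red with 95% counting intervals. A count of 0 is set to 3, dotted lines mark 2-fold, 2 genes lie outside the range plotted, and Mhrt lies at -1.60, below every other gene with at least 300 counts.

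The genes nearest to Mhrt in ratio, among those with at least 300 counts, all had a partner on the other strand, as did 77.3% of the 198 genes of that size. They were A630019I02Rik, with 140 counts in the transgenic and 244 in the non-transgenic library, Gm15612 with 126 and 195, the clock repressor gene Nr1d1 with 128 and 194, 4732471J01Rik with 222 and 330, and BC037032 with 143 and 202. Likeness was the distance in log2 ratio over these 2 libraries alone, and it ran between 0.47 and 0.77, so even the nearest was well above Mhrt. A630019I02Rik, at a ratio of 0.456 (0.368 to 0.564), overlaps Cmya5, and Nr1d1, at 0.525 (0.416 to 0.659), overlaps Thra.

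Myh7, the beta chain gene, had 20 counts in the transgenic and 27 in the non-transgenic library. The ratio was 0.589 (0.313 to 1.09), in the same direction as that of Mhrt but with an interval that takes in 1, so no difference was detectable at this depth. With TMM on genes without an opposite exon it was 0.539, with an interval just below 1. All of these counts fell on the accession NM_001361607, and the other, NM_080728, had 0 in both libraries. The 2 accessions differ only in untranslated bases. NM_001361607 has 178 bases of its own of 6230 (chr14:54994333-54994510), and NM_080728 has 83 of its own of 6135 (chr14:54970684-54970766). Besides Mhrt, the annotated genes Gm29015 and Gm31251 face Myh7 exons, and neither is in the count tables.

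Myh6, the alpha chain gene and by background knowledge among the most abundant messages of the adult mouse heart, had 1 count in the transgenic and 0 in the non-transgenic library. No ratio was given, because both lie at or under the floor of 3 counts. The single count fell on NM_001164171, which has 105 bases of its own among 6113, while NM_010856 has 0 of its own among 6008 and had 0 counts in both. The one annotated gene opposite a Myh6 exon, Gm49130 (114 bp of overlap), is not in the count tables, so that, unlike Myh7, Myh6 has no counted partner on the plus strand. These counts give no level for Myh6.

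Few own bases and few counts went together across the whole series. Among accessions of genes with several, those with under 100 bases of their own had a count in 1.20% of cases in the transgenic and 1.30% in the non-transgenic library (8413 accessions). For those with at least 500 bases of their own it was 17.5% and 16.2% (2178 accessions), and for accessions that are the only one of their gene 36.2% and 34.3% (17075). The split of reads between accessions of 1 gene was not tested as a source of the low counts of Myh6 and Myh7.

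Myh7b (chr2:155611212-155634307, plus strand) had 95 counts in the transgenic and 70 in the non-transgenic library, all on its single accession, NM_001085378. The ratio was 1.08 (0.784 to 1.49), with no difference detectable at this depth, and it was 0.987 when the scaling was set by genes with no opposite-strand exon within 5 kb. Its exons share 37 bp with Trpc4ap on the minus strand, which extends beyond 50 kb and had 0 counts in both libraries. Since the strand setting of the counting is not given, a Myh7b count cannot be assigned to 1 strand with certainty either. Myh7b had more counts than Myh7 and Myh6 together in either library. It is the only one of the 3 coding genes whose exons belong to 1 accession.

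Per kb of all exon bases of a gene, the order of the 3 genes with a ratio was the same in both libraries. Mhrt had 890 counts per kb (exact Poisson interval 827 to 957) in the transgenic and 2147 (2049 to 2250) in the non-transgenic library. Myh7b had 15.4 (12.5 to 18.8) and 11.4 (8.85 to 14.4), and Myh7 had 3.17 (1.94 to 4.89) and 4.28 (2.82 to 6.22). None of these intervals overlaps its neighbour in the order. The levels are those of counted reads and not of transcripts, since most of the Myh7 length was shared between its accessions. The Myh7 transcript that took all counts has only 178 bases of its own. Divided by those bases alone, Myh7 would stand above Myh7b and still below Mhrt. The order of Myh7b and Myh7 thus depends on the length used, and the counts do not say which bases the reads came from. Of the counts on Mhrt and Myh7 together, Mhrt held 97.4% (95.9 to 98.4) in the transgenic and 98.5% (97.8 to 99.0) in the non-transgenic library, a share that does not depend on scaling.

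**Figure D3:**
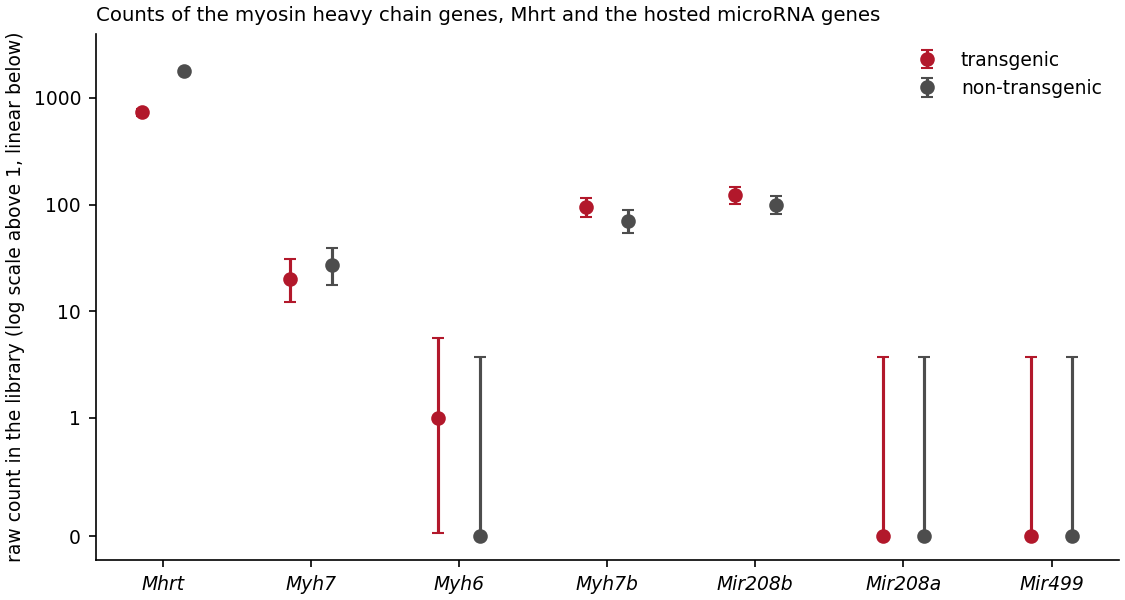
Raw count per library (log scale above 1, linear below) of Mhrt, the 3 myosin heavy chain genes and the 3 hosted microRNA genes, in the transgenic (red, left) and non-transgenic (grey, right) library, with exact 95% Poisson intervals. Mhrt is apart at 737 and 1778, and Myh6, Mir208a and Mir499 lie at 0 or 1.

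The microRNAs hosted in the introns of these genes act on transcription and growth regulators of the heart, and miR-208a is known in mice to promote Myh7 under stress. Their mature sequences, from RefSeq on GRCm38.p6, are shown for their shared seed, the bases 2 to 8 that pair with targets, in capitals. The first is encoded within Myh6 (chr14:54949072-54949093), the second within Myh7 (chr14:54975710-54975731) and the last within Myh7b (chr2:155622893-155622913).
mmu-miR-208a-3p: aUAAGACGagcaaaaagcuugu
mmu-miR-208b-3p: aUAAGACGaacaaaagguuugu
mmu-miR-499-5p: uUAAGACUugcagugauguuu

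The 7 seed bases are identical in miR-208a and miR-208b, and miR-499 has 6 of them. Over all 22 bases, miR-208a and miR-208b are identical at 19. The libraries were made from poly-T selected messenger RNA and do not measure mature microRNAs, but the hairpin genes are rows of the count tables. Mir208a and Mir499 had 0 counts in both libraries, like all but 47 of the 1182 microRNA genes.

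Mir208b was the exception, with 123 counts in the transgenic and 100 in the non-transgenic library, the second highest sum of any microRNA gene and 1 of 5 with at least 30 counts. Its ratio was 0.978 (0.745 to 1.29), so no difference was detectable, and its sign flipped with DESeq2 size factors, with total counts, with total counts without the 10 most counted genes and with TMM on overlapping genes. The hairpin lies in an intron of Myh7 on the minus strand (chr14:54975700-54975776), 1351 bp past the end of Mhrt, and faces no annotated exon. A count there cannot be told apart from a read of the surrounding intron. Its 77 bases are shown because they hold more counts than Myh7 in both libraries, with the mature miR-208b-3p in capitals.
Mir208b hairpin: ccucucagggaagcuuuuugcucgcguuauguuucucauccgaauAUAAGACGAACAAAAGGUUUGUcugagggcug

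Setting the genes against each other removes the library scaling. Mhrt was chosen partly for its counts here, so its values below are a description. The ratio of Mhrt was 0.337 times that of Mir208b (exact conditional interval 0.253 to 0.449) and 0.305 times that of Myh7b (0.218 to 0.426). Against Myh7, Mhrt was at 0.560 times (0.300 to 1.06), so that the ratios of the overlapping pair could not be told apart at this depth. Myh7 was at 0.602 times Mir208b (0.301 to 1.19) and 0.546 times Myh7b (0.267 to 1.10), again not distinguishable, and Mir208b was at 0.906 times Myh7b (0.591 to 1.39). Against abundant thick-filament genes, Mhrt was at 0.255 times the ratio of Myl2 (0.230 to 0.282) and 0.358 times that of Mybpc3 (0.302 to 0.425). The transgene encodes a shortened form of the Mybpc3 protein, so transgenic counts of Mybpc3 may include its message.

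**Figure D4:**
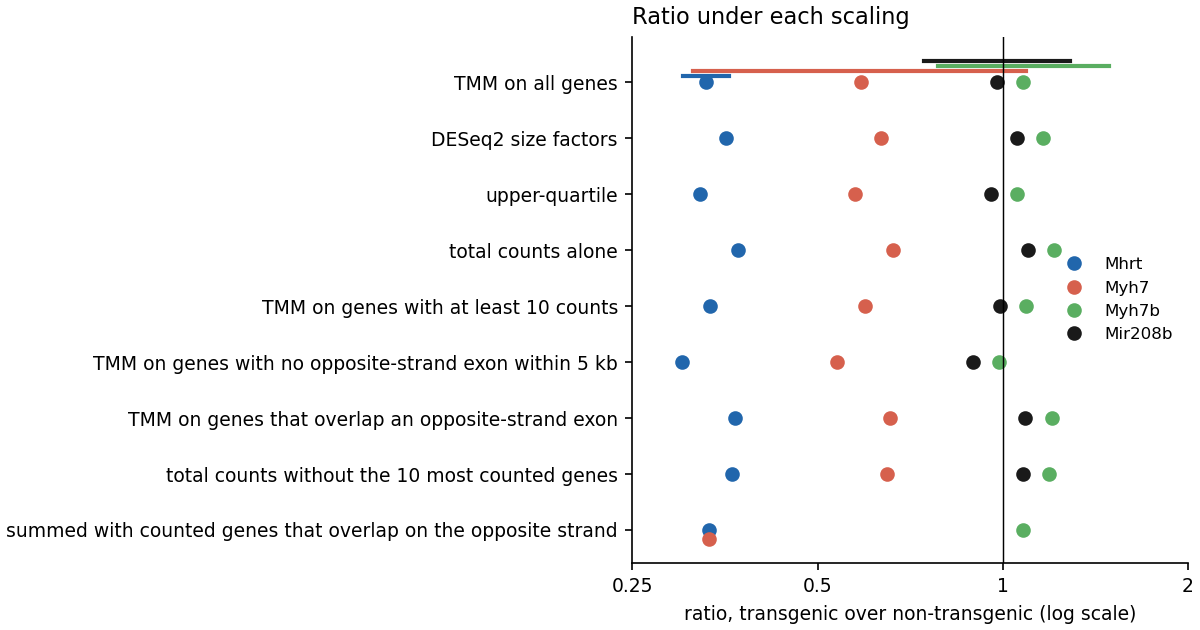
Ratio of transgenic to non-transgenic (log scale) for Mhrt, Myh7, Myh7b and Mir208b under the scaling used and 7 others, and, in the lowest row, summed with counted genes on the opposite strand. Bars above the first row are 95% counting intervals. Mhrt stays between 0.301 and 0.370, and Mir208b and Myh7b lie on both sides of 1; Mir208b has no counted gene on the other strand and no point in the lowest row.

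Of all 25004 genes, 7081 had a count in the transgenic and 6725 in the non-transgenic library. Around the members, too, counts were few, and nothing particular to these loci is read from that. Lying wholly within 50 kb were 19 other annotated genes, 11 of them in the count tables, of which 6 had 0 counts in both libraries. Only Mir208b and Pabpn1, which encodes a nuclear poly(A)-binding protein, reached 10 counts summed, Pabpn1 with 3 in the transgenic and 8 in the non-transgenic library.

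Other genes of the myosin system gave few calls. In these lists a member was called at least 1.5-fold apart with an interval on that side of 1, and 3.42% of all genes with a ratio were called higher and 5.90% lower. The median log2 ratio of all genes with a ratio was 0.05. Of 10 sarcomeric heavy chain genes, 4 had a count, 6 were at 0 in both libraries and 2, Myh7 and Myh7b, had a ratio; neither was called. Of 4 smooth muscle and non-muscle heavy chain genes 2 had a ratio. Myh9, a non-muscle chain, had 18 counts in the transgenic and 27 in the non-transgenic library, a ratio of 0.530 (0.275 to 0.998), and was the 1 gene called in any list, with an interval ending just under 1. That call was lost, with the interval taking in 1, under 5 of 7 other scalings. Myh10, another non-muscle chain, had 15 and 6 counts and was not called.

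The light chains bind the neck of the heavy chain, and the ventricular regulatory one had the most raw counts of any gene in these lists. Such counts do not compare levels between genes, since gene length was not allowed for and Myh6 gave no level. Myl2 had 3916 counts in the transgenic and 2405 in the non-transgenic library, a ratio of 1.29 (1.23 to 1.36) and so below 1.5-fold. Of 12 genes of light chains and their kinase 9 had a count, 5 had a ratio and none was called, with a median log2 ratio of 0.37. Myl12b, a non-muscle light chain, had 19 and 9 counts, a ratio of 1.68 (0.724 to 4.21).

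Among 31 factors known to act on Myh6 and Myh7, 15 had a count, 12 had a ratio and none was called in either direction with the scaling used, with a median log2 ratio of -0.10 in which Egr1, at 0 counts in the transgenic library, stands at its floor. Thra, the thyroid hormone receptor that activates Myh6 and represses Myh7, had 487 counts in the transgenic and 575 in the non-transgenic library, a ratio of 0.673 (0.596 to 0.761) that is 1.49-fold lower and just short of the call. It was called under 2 of 7 other scalings, at 1.52-fold lower with upper-quartile factors and 1.62-fold lower with TMM on genes without an opposite exon. Its exons overlap Nr1d1 on the other strand, so its count, like that of Mhrt, cannot be assigned to 1 strand. Hdac2, a histone deacetylase which has no antisense neighbour within 5 kb, had 28 and 21 counts, a ratio of 1.06 (0.581 to 1.96) that turned below 1 with TMM on genes without an opposite exon. The list's 16 members at 0 in both libraries leave most of these regulators undescribed.

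Of 15 names for chaperones, ligases and partners of assembled myosin 14 were in the tables, 10 had a ratio and none was called, with a median log2 ratio of -0.04. Hsp90ab1, a chaperone used in myosin folding, had 451 counts in the transgenic and 380 in the non-transgenic library, a ratio of 0.944 (0.821 to 1.08). Mybpc3, which encodes cardiac myosin binding protein-C, had 398 and 344, a ratio of 0.920 (0.794 to 1.07). Both intervals take in 1, and both signs turned with total counts alone, with total counts without the 10 most counted genes and with TMM on overlapping genes. The transgene encodes a shortened form of the Mybpc3 protein. Whether its message is among the transgenic counts of Mybpc3 was not tested, so the ratio is not that of the mouse's own gene alone with certainty.

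**Figure D5:**
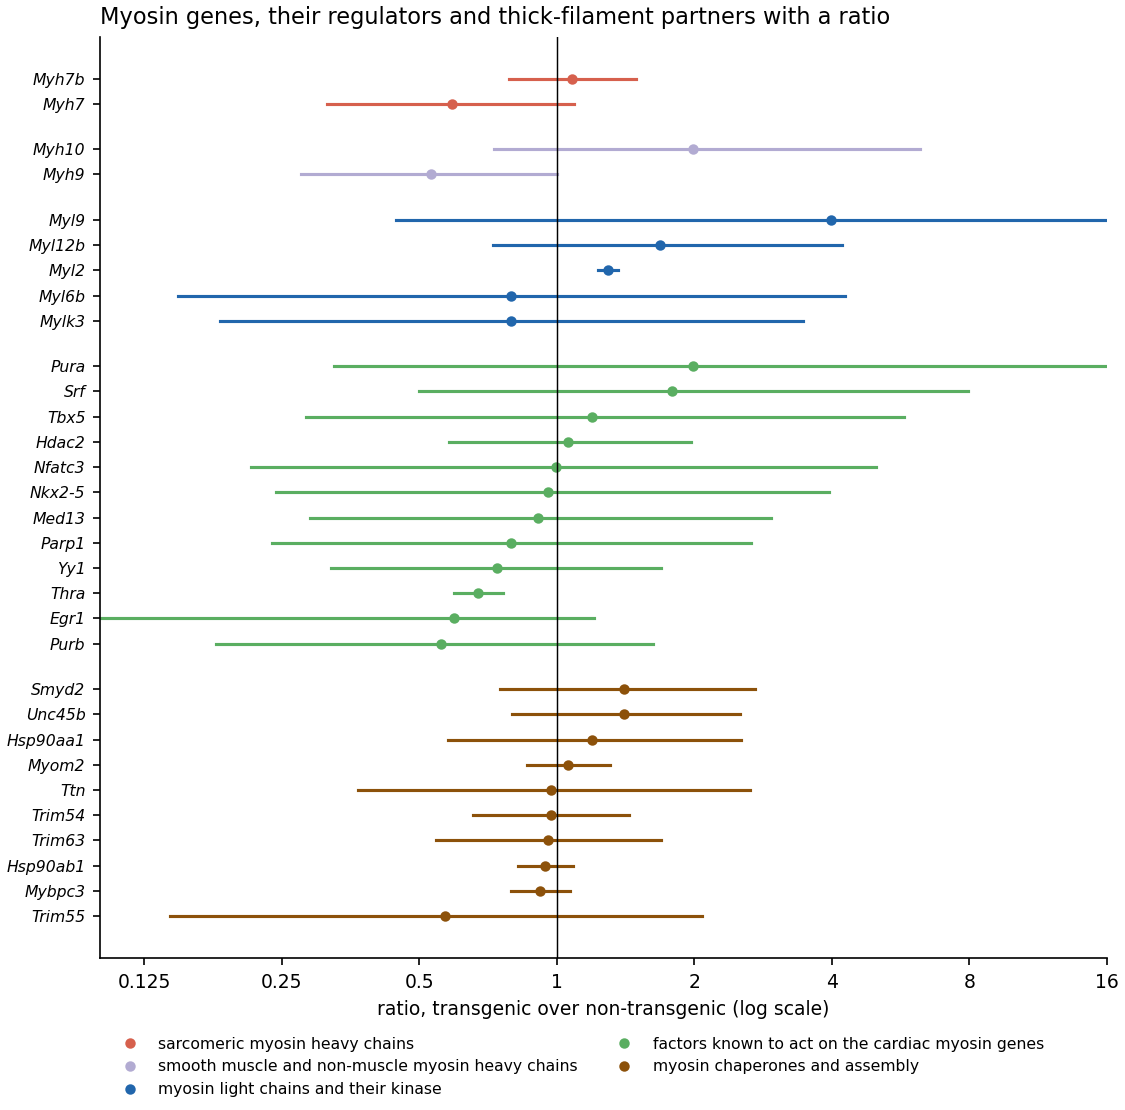
Ratio of transgenic to non-transgenic (log scale) with 95% counting intervals for the genes with a ratio in the lists of heavy chains, light chains, regulators and thick-filament partners. Intervals beyond 0.1 or 16 are cut at the edge, Egr1, with 0 transgenic counts, is drawn at the floor of 3, and with the scaling used only Myh9 of these genes was called, at a ratio of 0.530.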

How the data were processed

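Messenger RNA from hearts was measured in 1 library per group. The deposited values are raw counts per RefSeq accession. Per the submitters' processing notes, STAR, HTSeq and the mm10 build were used; the sources used here do not give versions, the annotation, the strand setting or the treatment of shared reads. Per the labels' protocols, poly-T beads captured the messenger RNA, and library preparation was by TruSeq Stranded mRNA.

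Counts of 41449 accessions were summed over 25004 genes, with 41252 named from RefSeq, 99 from GENCODE M21 and 98 kept under their accession (1.66% of counts in the transgenic and 1.81% in the non-transgenic library). Exons are those of GENCODE transcripts paired with the accessions. TMM factors (edgeR 4.0.16 in R 4.3.3) were 1.06 for the transgenic and 0.943 for the non-transgenic library. The edgeR quasi-likelihood test needs replicates and could not be used. Ratios carry exact Clopper-Pearson intervals from the share of each library's counts. The calculation was run on simulated counts with counting error only, which says nothing about differences between animals or libraries. Overlaps used bedtools 2.31.1 (at least 1 bp), and calculations used Python 3.11.15, numpy 2.4.6, scipy 1.17.1 and pandas 2.3.3.

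The members and lists were chosen with earlier results of these data known. Named genes were the members, genes opposite them, neighbours within 50 kb with at least 10 counts, the 5 genes of at least 300 counts nearest to Mhrt in ratio, and in each list up to 4 called genes or else the 2 most counted; 1 gene of the list of chaperones and partners is not reported here. Myh10 and the opposite-strand partners of those 5 genes were named after their values were seen. Alternatives were other scalings, including DESeq2 1.42.0 size factors, the most counted accession, sums over both strands, other folds and another minimum count.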

Additional observations from a re-analysis of the deposited data

How the results depend on the processing

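The low ratio of Mhrt kept its direction and stayed more than 2-fold under the 7 other scalings, between 0.301 and 0.370. The other 2 alternatives could hardly move it, since it has 1 accession and holds nearly all counts of its sum with Myh7. It left its counting interval under 4 scalings, at 0.301 with TMM on genes with no opposite-strand exon within 5 kb, 0.367 with TMM on genes that overlap one (added after seeing the data), 0.363 with total counts without the 10 most counted genes and 0.370 with total counts alone. Other scalings shifted all log2 ratios by -0.13 to 0.17. Under the other scalings Myh7 ranged from 0.539 to 0.662, Myh7b from 0.987 to 1.21 and Mir208b from 0.894 to 1.10, each within its own interval. Summing Myh7 with Mhrt gave 0.333, a value set almost wholly by the Mhrt counts and so no alternative estimate for Myh7. Genes at least 2-fold apart numbered 262, but 121 with at least 30 counts and 395 at 1.5-fold. Of the 262, 40.1% were higher in the transgenic library, against 58.6% of 268 with DESeq2 size factors, 63.7% with total counts alone, 62.1% without the 10 most counted genes, 62.7% with TMM on overlapping genes and 23.6% with TMM on isolated genes; the last 3 of these, and all Mir208b alternatives, were added after seeing the data. Dividing all Mhrt counts by only the 344 bases that face no annotated exon gave 2142 per kb in the transgenic and 5169 in the non-transgenic library. The counts do not say which bases the reads came from, so these values are no measured density over those bases. Mhrt has 1 accession, so leaving out accessions was not possible, and Myh6 had too few counts for any ratio. No paired analysis was possible because each group is 1 library, and for the same reason no replicate could be left out. Over all lists 1 gene was called, against 0 with DESeq2 size factors, total counts alone, total counts without the 10 most counted genes, TMM on genes with at least 10 counts and TMM on overlapping genes, 2 with upper-quartile factors (Myh9 and Thra) and 3 with TMM on isolated genes (Myh7, Myh9 and Thra), all added after seeing the data. The low counts of Myh7 give it a wide interval.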

Other observations

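The partners of the genes nearest to Mhrt in ratio went different ways, and they were looked up after the ratios were seen. Cmya5, which encodes a muscle protein of the costamere and lies opposite A630019I02Rik, had 137 counts in the transgenic and 90 in the non-transgenic library, a ratio of 1.21 (counting interval 0.921 to 1.60). Oxct1, which encodes the enzyme that starts ketone body use and lies opposite BC037032, had 223 and 130 counts, a ratio of 1.36 (1.09 to 1.71), while BC037032 was at 0.563 (0.451 to 0.701). Thra, opposite Nr1d1, was lower like its partner. Podxl2, opposite Gm15612, and Lipe, the hormone-sensitive lipase gene opposite 4732471J01Rik, had 0 counts in both libraries. Among these partners, only the intervals of Oxct1, above 1, and of Thra, below 1, left out 1, and that of Cmya5 took it in. The 5 genes were picked for their low ratios, so no pattern is read from their partners.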
